A study of Mus musculus with 6 samples.

Results

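Open chromatin was examined at 10 mouse genes that carry transforming growth factor beta (TGF-beta) signalling. They were the ligand genes Tgfb1, Tgfb2 and Tgfb3, the receptor genes Tgfbr1, Tgfbr2 and Tgfbr3, the signal transducer genes Smad2 and Smad3, the inhibitor gene Smad7 and the co-repressor gene Skil. The 10 genes were chosen by name from 21887 protein-coding genes. A peak of open chromatin was counted for a gene when its summit, its point of highest signal, lay inside the annotated gene or within 50 kb of either end. This took in 172 of 106132 peaks in wildtype (WT) cells and 162 of 98072 peaks in cells without Lap2alpha (KO).

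The cells were dermal fibroblasts of mouse skin, grown in DMEM with fetal calf serum and antibiotics, and the WT and KO groups differed in genotype only, as far as the labels say. Lap2alpha is a nucleoplasmic form of lamina-associated polypeptide 2 that binds A-type lamins. Accessibility was profiled by ATAC-seq, which uses the transposase Tn5 to place adapters in open DNA, with 3 libraries per genotype. The authors deposited 1 peak list per genotype over its 3 libraries, so no value below has a replicate error, no difference between genotypes could be tested, and the read depth is unknown. No label says whether the libraries came from separate animals or cultures, or how the allele was made.

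TGF-beta is secreted in a latent complex and, once released, binds a type II receptor that recruits and activates a type I receptor. The activated type I receptor phosphorylates Smad2 and Smad3, which enter the nucleus with Smad4 and act on target genes, among them the feedback inhibitors Smad7 and Skil. In dermal fibroblasts the pathway is known for driving collagen synthesis and the myofibroblast state.

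The labelled cell type was checked against marker genes by asking for a peak within 1 kb of the gene start. Of 12 dermal fibroblast markers, 11 had such a peak in both lists. Keratinocyte markers had one at 0 of 6 genes, muscle markers at 0 of 3 and adipocyte markers at 0 of 2. A start peak was present in both lists at 1 of 5 leukocyte, 2 of 4 endothelial and 2 of 4 Schwann cell or melanocyte markers. A further leukocyte marker had one in the WT list only, at signal percentile 5.26. The part that other cell types might play in the values below was not tested.

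Sequences of the 250 bases before the annotated start are shown first, since every member had a peak at its start in both lists and the sequence there can be set beside it. They are from RefSeq for the mouse build GRCm38.p6, whose promoter table supplied the starts of the 5 members shown. Each is written 5′ to 3′ on the strand of the gene. Capitals mark any match on either strand to 1 of 8 motifs, namely AP-1 (TGANTCA), the SMAD element (CAGAC), the core of the SMAD palindrome (GTCTAG), the GC-rich SMAD element (GGCGCC), the GC box (GGGCGG), the core of the cyclic AMP element (TGACGT), the E-box (CACGTG) and the TATA box (TATAAA).
Tgfb1, chr7:25686752-25687001, plus strand: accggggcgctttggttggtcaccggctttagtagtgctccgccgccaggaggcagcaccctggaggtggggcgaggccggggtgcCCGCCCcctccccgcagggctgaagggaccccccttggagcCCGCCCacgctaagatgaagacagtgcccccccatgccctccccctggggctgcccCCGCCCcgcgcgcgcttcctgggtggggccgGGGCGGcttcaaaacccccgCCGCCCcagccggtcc
Tgfb2, chr1:186705990-186706239, minus strand: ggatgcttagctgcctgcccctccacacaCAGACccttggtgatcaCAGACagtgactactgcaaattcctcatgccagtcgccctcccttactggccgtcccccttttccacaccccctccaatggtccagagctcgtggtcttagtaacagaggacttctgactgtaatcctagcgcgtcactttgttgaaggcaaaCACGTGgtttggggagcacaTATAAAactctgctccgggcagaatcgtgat
Tgfbr1, chr4:47352972-47353221, plus strand: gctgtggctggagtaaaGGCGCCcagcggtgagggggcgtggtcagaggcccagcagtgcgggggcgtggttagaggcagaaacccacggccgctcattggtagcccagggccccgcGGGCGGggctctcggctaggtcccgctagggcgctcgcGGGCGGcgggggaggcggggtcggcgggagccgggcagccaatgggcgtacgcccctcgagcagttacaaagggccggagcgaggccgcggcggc
Tgfbr2, chr9:116175364-116175613, minus strand: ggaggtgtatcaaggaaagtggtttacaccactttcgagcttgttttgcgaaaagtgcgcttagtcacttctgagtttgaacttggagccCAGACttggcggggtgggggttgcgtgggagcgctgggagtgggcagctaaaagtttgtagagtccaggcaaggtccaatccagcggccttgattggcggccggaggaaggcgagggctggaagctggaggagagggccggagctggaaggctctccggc
Smad3, chr9:63757995-63758244, minus strand: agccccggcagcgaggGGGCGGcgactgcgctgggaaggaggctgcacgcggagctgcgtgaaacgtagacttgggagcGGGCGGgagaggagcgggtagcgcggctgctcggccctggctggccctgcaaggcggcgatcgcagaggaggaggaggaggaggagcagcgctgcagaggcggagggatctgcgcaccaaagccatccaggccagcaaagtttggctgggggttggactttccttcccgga

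These 5 stretches differ in base composition and in their motifs. GC content is 75.2% before Tgfb1, 74.8% before Tgfbr1 and 69.2% before Smad3, against 58.4% before Tgfbr2, 53.6% before Tgfb2 and a median of 52.4% over 32851 promoters. The GC box, a site for Sp-family factors, is found 5 times before Tgfb1, 2 times before Tgfbr1 and 2 times before Smad3, and it occurs in 32.7% of all promoters. CAGAC stands 2 times before Tgfb2 and 1 time before Tgfbr2, in a background of 42.2% of promoters. The GC-rich SMAD element is found once before Tgfbr1 (9.59% of promoters hold it), and the E-box (6.02%) and the TATA box (12.4%) once each before Tgfb2. Its TATA box ends 26 bases before the start, and the Tgfb2 stretch as a whole lies inside the annotated gene span, which reaches further upstream. AP-1, the palindrome core and the cyclic AMP core, held by 6.75%, 7.11% and 6.47% of promoters, have no match in these 5 stretches. A match describes letters only.

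The peaks covered these stretches to different extents. All 250 bases before Tgfbr1, Tgfbr2 and Smad3 were covered by a peak in both lists. Before Tgfb2, 209 bases were covered in WT and 187 in KO. Before Tgfb1, 0 bases were covered in either list, although its 5 GC boxes lie there.

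All 10 genes had a peak within 1 kb of the gene start in both lists, where 55% of all protein-coding genes did. A further 2.01% of genes had a start peak in WT only and 1.08% in KO only, and 0 of the 10 members were among these. No strand was used here for Tgfb3, Tgfbr3, Smad2, Smad7 and Skil, and for these a peak at either gene end counted. The same held for the other protein-coding genes without an annotated start. The signal of a peak, as the authors gave it, is not scaled between lists and is given as the percentile of the peak within its own list. Lists of unequal length make such percentiles a description of each list, so a pair of percentiles shows no change by itself.

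The start peaks ranked high in both lists. Tgfbr2, which encodes the type II receptor, had the highest WT percentile at 99.0, with 98.4 in KO, and Tgfbr3, which encodes the co-receptor betaglycan, had 98.7 and 96.2. Smad3 stood at 95.1 in WT and 97.0 in KO, Smad7 at 94.9 and 96.3, and Tgfb3 at 92.5 and 92.7. Tgfbr1, the type I receptor gene, had the lowest at 76.9 and 70.0, followed by Tgfb1 at 79.5 and 81.8. Over all genes with a start peak in both lists the median was 91.6 in WT and 90.2 in KO, so 5 of the 10 members lay above the median in WT and 6 in KO.

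**Figure D1:**
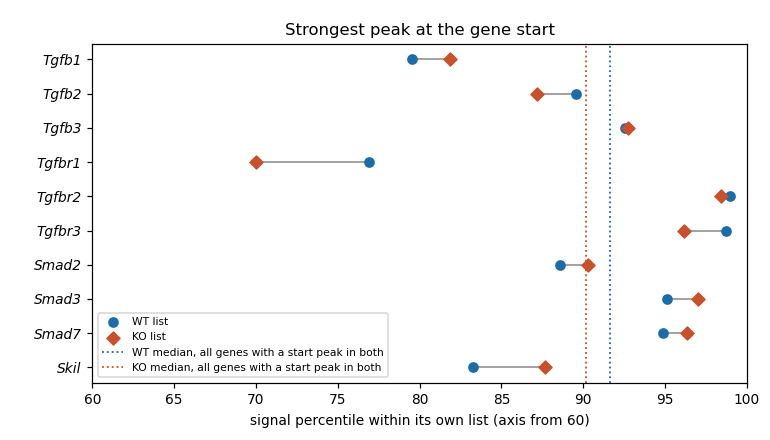
Signal percentile, within its own list, of the strongest peak within 1 kb of the start of each gene (either end where no strand was used), with circles for the WT list and diamonds for the KO list and dotted lines at the medians over all genes with a start peak in both lists. Tgfbr2 has the highest percentile in both lists, and Tgfbr1 has the lowest percentiles, 76.9 in WT and 70.0 in KO; the axis starts at 60.

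Among the 3 ligands, peaks called in only 1 list were weak, and most of them belonged to WT, as was the case over all peaks. A peak was WT-only or KO-only when no peak of the other genotype overlapped it by 1 bp or more. Of all WT peaks 20.4% were WT-only, and of all KO peaks 13.4% were KO-only. The ligand windows held 42 WT and 36 KO peaks, of which 8 were WT-only (19.0%, exact 95% interval 8.60 to 34.1) and 3 KO-only (8.33%, interval 1.75 to 22.5). Here and below the intervals are Clopper-Pearson intervals, cover counting error only and treat neighbouring peaks as independent.

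Tgfb1, the ligand most often studied in wound repair and fibrosis, lies on chromosome 7 from 25687002 to 25705077. It had 11 WT and 8 KO peaks, of which 2 and 0 lacked a partner. Its start region held a small peak from 25687172 to 25687487 in WT (percentile 13.6) and 25687185 to 25687486 in KO (percentile 5.51). A wide peak inside the gene ran from 25687623 to 25689512 in WT and 25687643 to 25689562 in KO, with percentile 79.5 and 81.8. Its summit lay 2094 bp and 2080 bp inside the gene, so the open region of Tgfb1 sat downstream of the start and of the GC boxes printed above.

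The surroundings of Tgfb1 were gene-dense. Its window touched 7 protein-coding genes, and Tgfb1 was the nearest gene for only 3 peaks of each list. The strongest peak in the window lay nearest Bckdha, from 25657919 to 25659857 in WT (percentile 91.0) and 25657907 to 25659858 in KO (percentile 88.6). The WT-only peaks lay from 25753281 to 25753739 (percentile 13.0, with a KO peak 377 bp away) and from 25647816 to 25647964 (percentile 1.53). Neither had Tgfb1 as its nearest gene.

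Tgfb2, a ligand with roles in the development of heart and eye, lies on chromosome 1 from 186622787 to 186709697. It had 17 WT and 16 KO peaks, of which 4 were WT-only and 3 KO-only. The start peak ran from 186705026 to 186706198 in WT (percentile 89.5) and 186705074 to 186706176 in KO (percentile 87.1), and its summit lay 686 bp and 688 bp into the gene. The strongest peak of the window was outside the gene, from 186586671 to 186587734 in WT (92.0) and 186586715 to 186587737 in KO (90.8). It lay beyond the lower-coordinate end, which on the minus strand is the 3′ side, with its summit 35580 bp from that end in WT.

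Peaks in 1 list only at Tgfb2 had percentiles of 6.98 to 21.6 in WT and 2.42 to 4.76 in KO. Inside the gene there were 7 WT and 4 KO peaks, and the 3 additional WT peaks were all WT-only. They ran from 186674304 to 186674518 (percentile 19.0), from 186699044 to 186699228 (11.4) and from 186699363 to 186699763 (6.98). The fourth WT-only peak, from 186604235 to 186604450 (21.6), lay outside the gene, 1385 bp from a KO-only peak from 186605836 to 186605978 (3.18). The other KO-only peaks, from 186719820 to 186719987 (4.76) and from 186577350 to 186577579 (2.42), were outside the gene as well.

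Tgfb3, the ligand known for palate fusion, lies on chromosome 12 from 86056743 to 86079041. It had 14 WT and 12 KO peaks, of which 2 were WT-only and 0 KO-only, a difference that turned to 1 more KO-only peak with lists of equal length. Its strongest peak spanned the upper gene end, from 86078483 to 86079898 in WT and 86078461 to 86079896 in KO, at percentiles of 92.5 and 92.7. A second peak at that end ran from 86077117 to 86078313 in WT (82.5) and 86077116 to 86078198 in KO (78.5).

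The WT-only peaks in the Tgfb3 window were far from the ligand gene. They ran from 86012194 to 86012639 (percentile 45.9) and from 86008212 to 86008425 (18.4), and Ttll5 was the gene nearest to both. KO peaks lay 964 bp and 224 bp from them. Of the 14 WT and 12 KO peaks, 3 in each list had Tgfb3 as their nearest gene, and all of these were called in both lists.

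**Figure D2:**
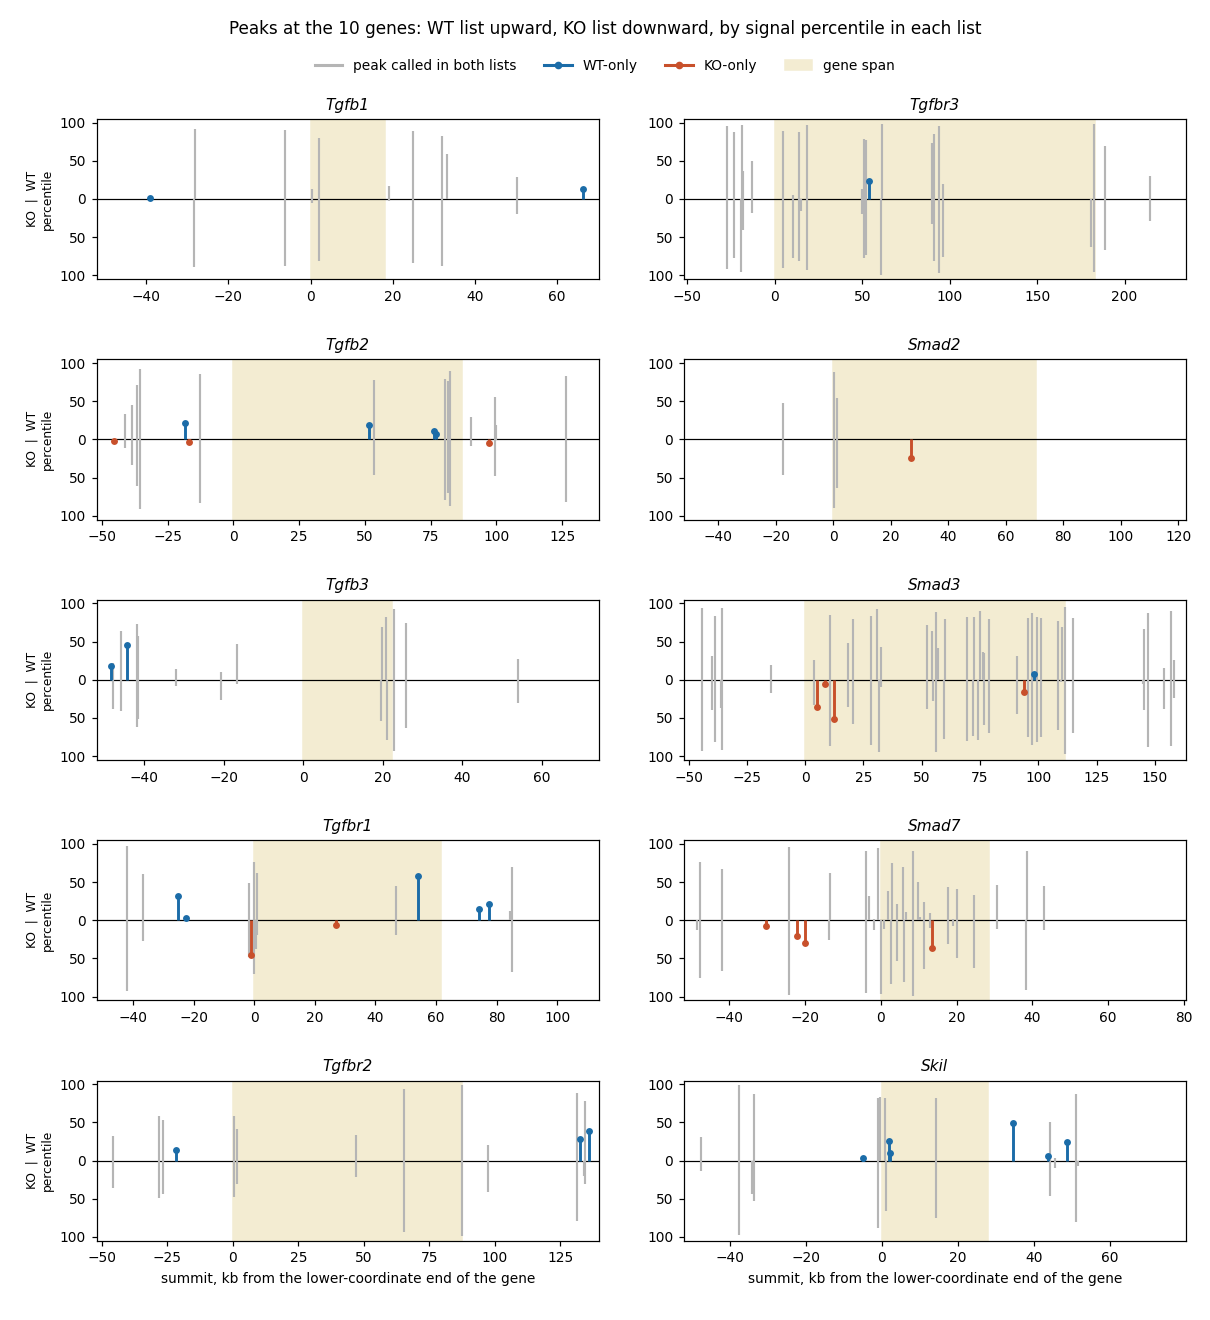
Every peak in the windows of the 10 genes, by the distance of its summit from the lower-coordinate gene end in kb, with the signal percentile in the WT list drawn upward and that in the KO list downward and the gene span shaded. Grey peaks were called in both lists; the Smad3 and Smad7 windows are the densest, and the coloured peaks of 1 list only are mostly short.

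At the 3 receptors the pattern was similar, with 9 WT-only peaks of 48 (18.8%, interval 8.95 to 32.6) and 2 KO-only peaks of 44 (4.55%, interval 0.555 to 15.5). Both intervals included the shares of all peaks, 20.4% and 13.4%. Each receptor gene had more WT-only than KO-only peaks, as 46.6% of all protein-coding genes did, but the sign turned at Tgfbr1 with a window of 10 kb and at Tgfbr3 with lists of equal length or a reciprocal overlap of 50%.

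Tgfbr1, on chromosome 4 from 47353222 to 47414926, was called differently at its start in the WT and KO lists. Of 13 WT peaks 5 were WT-only, and of 10 KO peaks 2 were KO-only. In WT, peaks ran from 47352750 to 47353331 (percentile 76.9) and from 47353466 to 47354287 (62.1). In KO there were 4 peaks in this place, from 47352897 to 47353289 (70.0), from 47353513 to 47354012 (38.3), from 47354119 to 47354329 (18.9) and, without a WT partner, from 47352143 to 47352633 (45.8). The KO-only peak lay upstream of the start and 116 bp from the nearest WT peak. It was the only peak in 1 list alone that lay within 1 kb of the start of any of the 10 genes.

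Of all peaks called in 1 list only at the 10 genes, the one of highest percentile lay inside Tgfbr1. It was WT-only, from 47407227 to 47407532 at percentile 57.7, and the nearest KO peak was 7076 bp away. The next WT-only peaks by percentile lay outside the gene, from 47327862 to 47328089 (32.0) and from 47430519 to 47430850 (21.1), and 2 others stood at 15.1 and 2.90. The second KO-only peak, from 47380128 to 47380294, had percentile 6.07. A second start is annotated for the gene at 47386216, and neither list had a peak within 1 kb of it. The strongest peak of the window, from 47309744 to 47311594 in WT (96.8) and 47309889 to 47311333 in KO (92.9), was nearest the collagen gene Col15a1.

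The region around Tgfbr1 also had fewer KO peaks. The 10 Mb around it, without the gene window, held 76.6% as many KO as WT peaks, 29.0% of WT peaks were WT-only and 4% of KO peaks were KO-only. The same ratio over the genome was 92.4%. The WT-only excess at the gene and the excess in its region cannot be told apart.

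Tgfbr2 lies on chromosome 9 from 116087695 to 116175363 and had its strongest peak at the start in WT and in KO. It ran from 116173925 to 116176188 in WT and 116174021 to 116176188 in KO, with its summit 28 bp and 145 bp inside the gene. A second strong peak lay inside the gene, from 116152652 to 116154104 in WT (93.8) and 116152655 to 116153771 in KO (92.9). All 5 peaks inside the gene were called in both lists.

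The 3 WT-only peaks of the Tgfbr2 window, of 14 WT and 12 KO peaks in all, were outside the gene, and 0 peaks were KO-only. On the upstream side they ran from 116223444 to 116223666 (percentile 38.3) and from 116220206 to 116220509 (28.1), with summits 48178 bp and 45062 bp from the gene. On the other side 1 ran from 116065796 to 116065974 (14.3), nearest the gene Gadl1. The surrounding 10 Mb had a WT-only share of 21.2%, close to the 21.4% of the window (interval 4.66 to 50.8).

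Tgfbr3 lies on chromosome 5 from 107106567 to 107289629, and 14 of its 21 WT and 15 of its 22 KO peaks were inside the gene. Only 1 peak was WT-only, from 107160328 to 107160583 at percentile 23.3, and 0 were KO-only. At the upper gene end WT had a single peak of 2753 bp, from 107287100 to 107289852 (98.7). KO had 2 peaks there, from 107288215 to 107289854 (96.2) and from 107287271 to 107287714 (62.9). The strongest KO peak of the window was inside the gene, from 107166273 to 107168725 at percentile 99.3, with a WT partner from 107166351 to 107168471 at 98.3. This was the highest percentile of any KO peak at the 10 genes.

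Some shared peaks of Tgfbr3 had very different ranks in the 2 lists, and the 3 given here were chosen after their values were seen. The WT peak from 107116924 to 107117167 spanned 244 bp at percentile 5.27, and its KO partner from 107116594 to 107117426 spanned 833 bp at percentile 77.3. The WT peak from 107202601 to 107203038 was at 19.9, and its KO partner from 107202811 to 107203881 was at 76.5. In the other direction, a WT peak from 107195714 to 107196811 was at 73.3, and its KO partner from 107195909 to 107196362 was at 33.2. A count by overlap takes all 3 as shared.

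The 3 Smad genes had the opposite balance, with 1 WT-only peak of 66 (1.52%, interval 0.0384 to 8.16) and 9 KO-only peaks of 71 (12.7%, interval 5.96 to 22.7). Over all peaks the shares were 20.4% and 13.4%. The KO-only share of the Smads was thus near that of all peaks, and the balance came from their low WT-only share. Smad2 and Smad7 lie on chromosome 18, where only 10.8% of WT peaks were WT-only. They had 0 WT-only peaks of 28, with an interval that reaches 12.3%. Their low WT-only share and that of the chromosome cannot be told apart. The Smads were the 3 members with more KO-only than WT-only peaks, a pattern held by 22.9% of all protein-coding genes. These counts rest on the 1 bp rule, by which peaks that are joined in 1 list and separate in the other count as shared. With a reciprocal overlap of 50% required, 16 of the 66 WT peaks (24.2%) and 21 of the 71 KO peaks (29.6%) had no partner. The shares over all peaks were not computed for that rule.

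Smad3 lies on chromosome 9 from 63646766 to 63757994 and was the member with the most peaks, 38 in WT and 41 in KO. Per 100 kb of window this is 18 WT and 19.4 KO peaks, at percentile 95.1 and 97.6 of all protein-coding genes, whose medians were 6.77 and 6.26. Of these, 26 WT and 27 KO peaks were inside the gene. At the start, WT had 2 peaks, from 63757317 to 63758993 (percentile 95.1) and from 63756519 to 63757211 (69.0). In KO a single peak from 63756492 to 63758774 (97.0) overlapped both.

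The 4 KO-only peaks of Smad3 all lay inside the gene, and 3 of them had summits between 4963 bp and 12372 bp from its lower-coordinate end, the 3′ end. They ran from 63658867 to 63659663 (51.8), from 63651673 to 63652102 (36.0), from 63740361 to 63740572 (15.6) and from 63655215 to 63655419 (5.36). Each had its nearest WT peak between 1088 bp and 1493 bp away. The first was the highest of the 14 KO-only peaks at the 10 genes. The 1 WT-only peak, from 63744990 to 63745270, was at percentile 7.56, with a KO peak 513 bp away.

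The surroundings of Smad3 did not share this balance. The 10 Mb around it held 94.5% as many KO as WT peaks, with 18.2% of WT peaks being WT-only and 12.9% of KO peaks KO-only. In the Smad3 window KO had 107.9% of the WT number. The WT-only share was 2.63% (interval 0.0666 to 13.8), and the KO-only share was 9.76% (interval 2.72 to 23.1). With a reciprocal overlap of 50% the window had 9 WT-only peaks of 38 and 12 KO-only peaks of 41, with no share over all peaks computed. Of all protein-coding genes, 6.07% had a KO-only excess of 3 peaks or more. That ranks a raw count, and the median gene window held only 9 WT and 9 KO peaks. As a share, the KO-only peaks of Smad3 were below those of its region and the 13.4% of all KO peaks.

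Smad7, which encodes an inhibitor that blocks the activated type I receptor, lies on chromosome 18 from 75367365 to 75395935. It was the densest window, with 25 WT and 26 KO peaks, or 19.4 and 20.2 per 100 kb, at percentile 96.8 and 98.1 of all genes. The peak at the lower gene end ran from 75366214 to 75368401 in WT (94.9), and in KO from 75366254 to 75368007 (96.3) and from 75368161 to 75368473 (11.6). Of its KO peaks 4 were KO-only, and of its WT peaks 0 were WT-only, with an interval that reaches 13.7%. With a reciprocal overlap of 50% it had 8 KO-only and 7 WT-only peaks, with no share over all peaks computed.

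Several peaks inside Smad7 were separate in WT and joined in KO. The widest KO peak, 3108 bp from 75374693 to 75377800 at percentile 98.7, overlapped 3 WT peaks. These ran from 75374744 to 75376409 (90.9), from 75376588 to 75377452 (49.9) and from 75377577 to 75377782 (3.79). Likewise, the KO peak from 75369003 to 75371153 (83.8) overlapped WT peaks at percentiles of 75.4 and 38.0. The KO peak from 75371968 to 75374542 (81.5) overlapped WT peaks at 70.3 and 10.9. The peaks covered 24.024 kb of the window in KO and 20.856 kb in WT, although over the 10 windows KO covered 126.503 kb and WT 136.255 kb.

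Apart from the peak at the gene end, 3 regions outside Smad7 stood above percentile 90 in both lists. The strongest WT peak of the window ran from 75341888 to 75343541 (95.3), and its KO partner from 75341566 to 75343562 was at 98.2, with the same summit position, 24280 bp below the lower gene end. A second region ran from 75362592 to 75364050 in WT (91.0) and 75362542 to 75364477 in KO (95.4). On the other side of the gene, the third ran from 75404459 to 75406021 in WT (90.2) and 75404445 to 75406066 in KO (91.2). KO-only peaks lay from 75380735 to 75381126 (36.7), 128 bp from a WT peak, from 75347281 to 75347634 (30.3) and from 75344880 to 75345226 (20.4). The fourth was at percentile 7.16.

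Smad2 lies on the same chromosome from 76241090 to 76311748, and its window was the sparsest of the 10. It had 3 WT and 4 KO peaks, or 1.76 and 2.34 per 100 kb, at percentile 18.8 and 24.4 of all genes. The peak at the lower gene end ran from 76240525 to 76241973 in WT (88.6) and 76240531 to 76241941 in KO (90.3). A neighbour ran from 76242045 to 76242802 in KO (63.4) and 76242096 to 76242649 in WT (53.8). The 1 KO-only peak was inside the gene, from 76268051 to 76268267 at percentile 24.7, and the nearest WT peak was 25401 bp away.

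The KO-only peaks of Smad2 and Smad7 stood in a region rich in them. Chromosome 18 as a whole had a KO to WT ratio of 110.5%, and 22.5% of its KO peaks were KO-only. Its WT-only share was 10.8%, with 8.86% in the 10 Mb around Smad2 and 10.4% around Smad7. In the surrounding 10 Mb the KO-only share was 24.9% for both genes, against 15.4% in the Smad7 window (interval 4.36 to 34.9). The genes lie close together, so their 10 Mb regions overlap and are not separate observations. The KO-only excess at these 2 genes and that of their chromosome cannot be told apart. The 8 members on other chromosomes had 24 WT-only and 9 KO-only peaks.

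Skil encodes SnoN, a co-repressor that binds Smad proteins. It lies on chromosome 3 from 31095058 to 31122923, with 16 WT and 11 KO peaks, of which 6 were WT-only and 0 KO-only. An excess of 6 or more WT-only peaks was present at 3.84% of all protein-coding genes, whose median window held 9 peaks in each list. The excess of 6 was the largest among the 10 genes at this setting, but not at each alternative. It was 2 inside the gene span alone, where Tgfb2 had 3, and 3 when no peak within 1 kb was allowed, where Tgfbr1 had 4. With lists of equal length it was 2, the same as at Tgfbr1. At the lower gene end WT had 3 peaks, from 31093257 to 31094267 (81.6), from 31094376 to 31095211 (83.2) and from 31095396 to 31096689 (82.7). KO had 2 peaks there, from 31093659 to 31095156 (87.6) and from 31095426 to 31096356 (66.0).

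Next to these, 2 of the WT-only peaks of Skil lay inside the gene, from 31096801 to 31096993 (25.3) and from 31097129 to 31097303 (10.1), at 444 bp and 772 bp from a KO peak. The strongest WT-only peak lay beyond the upper gene end, from 31129288 to 31129858 (49.8), and the nearest KO peak was 9243 bp away. Another, from 31143728 to 31144003 (24.2), was nearest Cldn11. The other 2 stood at 6.26 and 3.15, so in the upper 50% of the WT list 0 of the 6 were left. Of the peaks with Skil as their nearest gene, there were 8 in WT and 3 in KO. The strongest peak of the window was nearest Prkci, from 31055768 to 31057806 in WT (98.6) and 31055801 to 31057807 in KO (98.0).

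The region of Skil was also poor in KO peaks. The 10 Mb around it held 73.0% as many KO as WT peaks, and 33.8% of WT peaks were WT-only and 4.88% of KO peaks KO-only. In the Skil window KO had 68.8% of the WT number, and the WT-only share was 37.5% (interval 15.2 to 64.6). On chromosome 3 as a whole KO had 95.5% of the WT number. The WT-only excess at Skil and that of its region cannot be told apart.

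**Figure D3:**
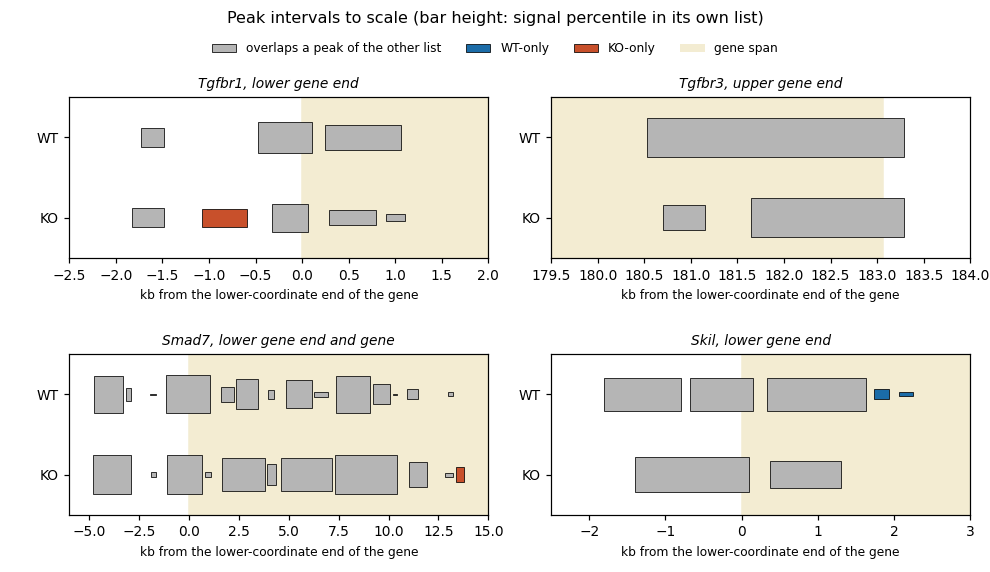
Peak intervals drawn to scale at the lower gene end of Tgfbr1, the upper gene end of Tgfbr3, the lower gene end and gene body of Smad7 and the lower gene end of Skil, by kb from the lower-coordinate gene end, with bar height in proportion to the signal percentile in each list. At Smad7 the KO peak of 3108 bp spans 3 WT peaks, at Tgfbr3 the WT peak of 2753 bp spans 2 KO peaks, and the KO-only peak at Tgfbr1 lies 116 bp from a WT peak.

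Over the 10 genes together, 24 of 172 WT peaks were WT-only (14.0%, interval 9.15 to 20.0) and 14 of 162 KO peaks were KO-only (8.64%, interval 4.81 to 14.1). Both shares were below those of all peaks, 20.4% and 13.4%, and for the KO-only share the interval included the value of all peaks. All peaks include those far from genes, and no share was computed over the windows of all genes. The part of peak strength in these shares was not tested. The ratio of KO to WT peaks was 94.2% in these windows and 92.4% over the genome. The median over the 10 genes of KO-only minus WT-only peaks was -1.5, and over all protein-coding genes it was 0. These are raw counts from windows of unlike peak number. The members had 3 to 38 WT and 4 to 41 KO peaks, and the median gene had 9 in each list. The sum of the differences over the 10 genes was -10, and it turned to 2 when both lists were limited to their 73554 peaks of highest signal. With more KO-only peaks at 3 genes and more WT-only peaks at 7, the members did not share a direction.

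The peaks of 1 list only ranked low. Their median percentile was 18.7 for WT-only and 18 for KO-only ones, while the shared peaks of the 10 windows had medians of 70.8 (WT) and 62.8 (KO). The corresponding medians of the complete lists were 17.8 and 16.5 without a partner, and 59.3 and 55.9 with one. At the members they were also narrow, with a median width of 225.5 bp in WT and 223.5 bp in KO. Shared peaks had 782 bp in WT and 671.5 bp in KO. In the complete lists the medians were 231 bp and 245 bp without a partner, and 561 bp and 545 bp with one. The signal grows with width, so low rank and narrow width are not separate traits. Above the middle of its list by signal, only 1 WT-only peak, the one inside Tgfbr1, and 1 KO-only peak, the one of percentile 51.8 inside Smad3, were left. For 16 of the WT-only and 12 of the KO-only peaks the nearest peak of the other genotype was over 1 kb away. For the counts above the middle and for those over 1 kb away, the shares over the complete lists were not computed.

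**Figure D4:**
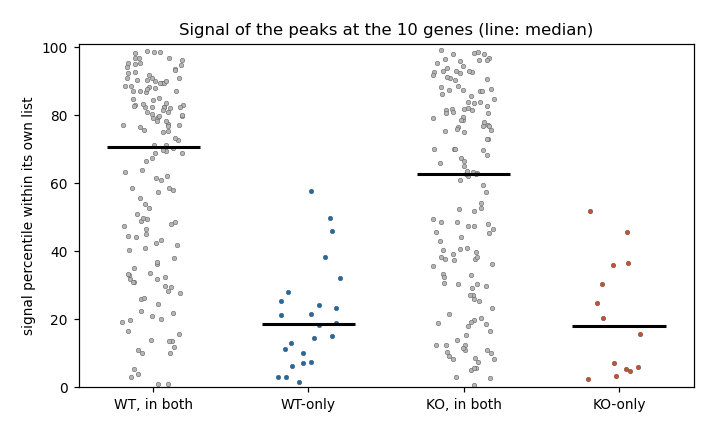
Signal percentile within its own list of each peak in the windows of the 10 genes, split by list and by whether a peak of the other list overlapped it, with a line at each median. Shared peaks spread over the whole range, with medians of 70.8 in WT and 62.8 in KO, and peaks of 1 list only reach 57.7 in WT and 51.8 in KO.

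Some peaks were whole in 1 list and in pieces in the other. Of WT peaks in the windows, 13 (7.56%) overlapped more than 1 KO peak, against 3.02% of all WT peaks. Of KO peaks, 11 (6.79%) overlapped more than 1 WT peak, against 2.87% of all KO peaks. These windows also held stronger and wider peaks than the genome, with 14.5% of WT and 14.8% of KO peaks in the strongest decile of their list, and the part of peak width in this was not tested. Summits of shared peaks lay a median of 14.5 bp apart, and 68.2% of them were within 50 bp, against 12 bp and 76.4% over all shared WT peaks. Of 12 summits more than 500 bp apart, 11 were at the Smad genes, which held 65 of the 148 shared WT peaks. The distance was taken to the partner of highest percentile, so WT peaks joined in KO are among them. Examples are 2 of the WT peaks under the widest KO peak of Smad7, at 1501 bp and 1940 bp. The share over all peaks was not computed for this distance.

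**Figure D5:**
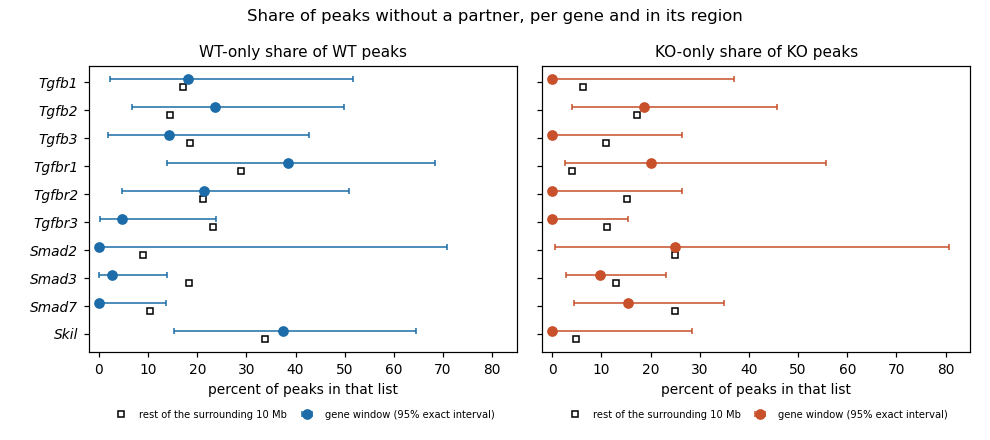
Share of WT peaks that were WT-only (left) and of KO peaks that were KO-only (right), in percent, in the window of each gene (points, with exact 95% intervals) and in the rest of the surrounding 10 Mb (squares). Skil and Tgfbr1 have high WT-only shares in regions where these are high too. Smad2 and Smad7 lie in overlapping regions with a KO-only share of 24.9%. By the 1 bp rule the WT-only share of Smad3 is the only point whose interval does not reach its region. Intervals are drawn for all 10 genes in both lists, without correction for their number, and treat neighbouring peaks as independent.

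Other genes of the pathway gave a like picture. A list of 48 genes held other Smads, receptors of the family, latency proteins, activating integrins, ubiquitin ligases and target genes. Their windows had 742 WT and 726 KO peaks, of which 94 (12.7%, interval 10.4 to 15.3) were WT-only and 71 (9.78%, interval 7.72 to 12.2) KO-only. Both shares were below those of all peaks, 20.4% and 13.4%, which include peaks far from genes. The part of peak strength in this was not tested. By gene, 26 had more WT-only peaks, 11 more KO-only peaks and 11 equal numbers, with a median difference of -1. Of all protein-coding genes, 46.6% had more WT-only and 22.9% more KO-only peaks, with a median difference of 0. A start peak was called in both lists at 43 of the 48 genes, where 55% of all protein-coding genes had one. The other 5, with a start peak in neither list, were Inhbb, Mstn, Nrros, Itgb6 and Nedd4l.

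The largest KO-only excess in that list was on chromosome 18 again. At Nedd4l, a ubiquitin ligase gene, 9 of 35 KO peaks were KO-only and 0 of 25 WT peaks WT-only. At Ldlrad4, which encodes an inhibitor of Smad activation, 7 of 32 KO peaks were KO-only and 3 of 29 WT peaks WT-only. On chromosome 18 as a whole, 22.5% of KO peaks were KO-only and 10.8% of WT peaks WT-only. The excess at these 2 genes and that of the chromosome cannot be told apart. The genes Ltbp3, Zfyve9, Foxh1 and Tgfbi tied for the next place with an excess of 2. The largest WT-only excess was at Itgb6, a subunit of a TGF-beta-activating integrin, with 6 WT-only and 1 KO-only peaks, followed by Ski, the relative of Skil, with 6 and 2. Smurf2, Acvrl1, Itgav and Fkbp1a each had 3 more WT-only than KO-only peaks. Smad4, the partner of Smad2 and Smad3, had 8 WT and 10 KO peaks, of which 0 and 1 lacked a partner.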

How the data were processed

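ATAC-seq was measured in mouse dermal fibroblasts with 3 libraries per genotype. The tools, per the submitters' processing notes, were Bowtie2 2.5.1, Genrich and deepTools 3.5.1, with GRCm38 as build. How the 3 libraries were combined, any Tn5 shift and the settings are not given in the sources used here. In each narrowPeak list, 1 per genotype, the authors deposited a score per peak, a signal, the −log10 p-value and the −log10 q-value of the summit, and the summit offset. The lists hold no read totals, so depth is unknown. The deposited signal has no value below 200 and is an area that grows with peak width, and it was used only as a percentile within its own list. The score and the q-value were not used, and the p-value only in 1 alternative.

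Summits were assigned to RefSeq gene spans of GRCm38.p6 plus 50 kb on either side, and lists were compared by an overlap of at least 1 bp. A longer list holds more weak peaks, so a peak of 1 list only may lie just under the threshold of the other. Starts were taken from the RefSeq promoter table for 17492 of the 21887 protein-coding genes. For the others, with Tgfb3, Tgfbr3, Smad2, Smad7, Skil and any such markers among them, either gene end counted as the start. Intervals are exact binomial. There is no test between genotypes. All members are named. For each, the peak of highest signal, the peaks at the start and up to 3 peaks of each list alone by percentile are given, together with the remaining ones where few. From the pathway list, genes with a start peak in 1 list only (there were 0) and the 3 with the largest difference per direction, ties included, are named. Smad4 was added after its values were seen. The members and lists were chosen with earlier results of these data known. Alternatives changed the overlap, the threshold, the list length, the window and the assignment of peaks.

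Python 3.11.15, numpy 2.4.6, pandas 2.3.3, scipy 1.17.1 and matplotlib 3.10.9 were used. Overlap counts were the same as those of bedtools 2.31.1, and the code was tested on simulated data with 200 planted WT-only peaks.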

Additional observations from a re-analysis of the deposited data

How the results depend on the processing

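No paired analysis was possible because each genotype has 1 combined peak list, with no values per library; for the same reason no library could be left out. With a reciprocal overlap of 50% required for sharing, 31.4% of WT peaks at the 10 genes were WT-only and 27.2% of KO peaks KO-only. Among peaks in the upper 50% by signal the shares were 1.05% and 1.19%. Shares over all peaks were not computed under either rule, and those of the main rule are no background for them. With both lists cut to their 73554 peaks of highest signal, KO-only minus WT-only peaks turned from -10 to 2 over the 10 genes and from -23 to 2 over the 48 pathway genes. The same cut turned Tgfb3 to 1 and Tgfbr3 to 2. A reciprocal overlap of 50% turned Tgfbr3 to 1, and a window of 10 kb beyond the gene turned Tgfbr1 to 1. Counting only summits within 250 bp of a start, 4 genes had a start peak in both lists (Tgfbr1, Tgfbr2, Smad2 and Smad3) in place of 10, and Smad7 had one in KO only. The cause was not tested. The ratio of KO to WT peaks stayed between 88.4% and 97.6% over 9 alternatives. Leaving out each gene in turn gave WT-only shares of 11.5% to 17.2% and KO-only shares of 7.35% to 10.0%. The other 7 genes kept the sign of their difference or reached 0 under the 9 alternatives. The unknown depth limits all counts of weak peaks.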
